A study of Homo sapiens with 16 samples.

Results

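The 52 genes described here code for proteins that attach chromosomes to the spindle, release the cohesin that holds sister chromatids together, and compact chromosomes in mitosis. They were taken by symbol from a written list of kinetochore, cohesin-release and condensin genes that leaves out kinases and kinesins, although CENPE, which is itself a kinesin motor of the kinetochore, is on it. All 52 were among the 78894 features of the deposited table, spike-in controls not counted, and all 52 passed the filter of at least 1 CPM in at least 4 libraries that left 16218 genes for testing. No measured value entered the choice, but the list was written with earlier results of these data known. RNA came from T47D, a luminal breast cancer cell line of human origin, in 4 groups of 4 libraries. FAH knockout cells under abemaciclib and control cells under abemaciclib had 500 nM of the drug for 3 days, and FAH knockout cells under vehicle and control cells under vehicle had none, with the DMSO of the titles as the vehicle. Control cells carried a control guide. FAH codes for fumarylacetoacetate hydrolase, the last enzyme of tyrosine breakdown, and abemaciclib inhibits the cell cycle kinases CDK4 and CDK6. The series asks what FAH does in resistance to such inhibitors. The sources used here give neither the guides nor whether the knockout cells were 1 clone or a pool. No label ties the replicates to cultures of their own, so the p-values below measure only how far these libraries spread, which can be technical.

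A kinetochore is built on nucleosomes that hold the histone variant CENP-A. The inner, constitutive centromere proteins bind these nucleosomes, and the outer network of the Knl1, Mis12 and Ndc80 complexes links them to microtubules. Unattached kinetochores keep the checkpoint active, which holds back the anaphase-promoting complex through CDC20. Once it is satisfied, securin is destroyed, separase is freed, and separase cuts cohesin. Cells that are kept out of the cell cycle by CDK4/6 inhibitors do not enter mitosis, and many genes of this kind are transcribed late in the cell cycle. In bulk RNA, fewer cells near mitosis and less RNA per cell cannot be told apart.

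Libraries held 9915775 to 11963096 assigned reads, so 1 read stood for 0.0836 to 0.101 CPM. FAH itself was at 5.03 to 6.79 CPM in knockout libraries under abemaciclib, against 22.6 to 25.8 CPM in control libraries under abemaciclib. Under vehicle it was at 6.27 to 7.02 CPM in knockout libraries and 25.1 to 28.2 CPM in control libraries. All 10 luminal markers examined passed the filter, and their summed level was 14956 to 15278 CPM in knockout libraries under abemaciclib, 10829 to 11306 CPM in control libraries under abemaciclib, 12513 to 12893 CPM in knockout libraries under vehicle and 9431 to 9526 CPM in control libraries under vehicle. By gene, 6 of the 10 luminal markers were lower and 4 were higher in knockout than in control cells under each treatment. The 2 keratins among the higher ones, KRT8 and KRT18, averaged 6323 and 3591 CPM in knockout cells under abemaciclib, against 3363 and 1859 CPM in control cells under abemaciclib. Of 10 basal or mesenchymal markers 4 passed, COL1A1, VIM, COL3A1 and CDH2. The summed levels of the 10 were 78.1 to 85.9, 72.6 to 83.7, 69.04 to 76.9 and 59.98 to 63.9 CPM in the same order of groups. Most of this was COL1A1, with means of 58.6, 53.1, 53.8 and 41.9 CPM, and VIM, with 16.6, 16.2, 13.5 and 13.9 CPM. The rest did not pass, and KRT5 was at 0 in all libraries of 3 of the groups. Of 8 leukocyte markers 3 passed, with summed levels of 3.23 to 4.96 CPM over all libraries. The part of these shifts in the results below was not tested.

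Abemaciclib lowered nearly the whole set in control cells. Of the 52 genes, 51 fell past the threshold (limma, Benjamini-Hochberg adjusted p under 0.05 over all tested genes), none rose, and CENPP did not pass, where 31.1% of all tested genes fell and 19.6% rose. The fall was at least 2-fold for 37 of the 52, against 2.09% of all tested genes, and in 50 of the 52 every control library under abemaciclib lay below every control library under vehicle, against 26.7% of all tested genes. The median log2 fold change on the log2(CPM + 1) scale was -1.65 for the 52 and -0.05 for all tested genes. Together the 52 made up 1156.5 ± 32.9 CPM in control libraries under abemaciclib and 3935 ± 48.3 CPM in control libraries under vehicle (SD, n = 4 each), so that 29.4% was left. In knockout cells all 52 fell under the drug and none rose, where 27.4% of all tested genes fell and 11% rose. There 42 of the 52 fell at least 2-fold, against 1.95% of all tested genes, the groups of all 52 did not overlap, against 25.5% of all tested genes, and the median log2 fold change was -1.77, against -0.07 for all tested genes. Their sum was 821.5 ± 12.96 CPM in knockout libraries under abemaciclib and 3187 ± 41.5 CPM in knockout libraries under vehicle (SD, n = 4 each), or 25.8% left. Rescaling the libraries by median of ratios moved the calls over all genes in control cells to 4017 lower and 4166 higher, where CPM as deposited gave 5039 lower and 3181 higher. In knockout cells it gave 2886 lower and 3173 higher, against 4444 lower and 1780 higher. With this rescaling 50 of the 52 genes fell in control cells and 52 in knockout cells, and none rose in either.

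The genes were not lowered to one common level. The mean under abemaciclib, as a share of the mean under vehicle in the same genotype, ran from 4.52% for SPC25 to 76.9% for BUB3 in knockout cells, with a median of 27.3%. In control cells it ran from 10.5% for SPC25 to 84.0% for CENPP, with a median of 30.8%. The share was below 50% for 42 genes in knockout cells and 39 in control cells, and below 15% for 14 genes in knockout cells and 7 in control cells. How many of all tested genes were below these shares by mean CPM was not counted. The order of the genes was nearly the same in the 2 genotypes, which share no library in this comparison. Over the 52 genes the log2 fold changes in knockout and control cells had a Pearson r of 0.97 and a Spearman rho of 0.975, as a description across genes, which are not independent of each other, and 46 of the 52 fell further in knockout cells.

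**Figure D1:**
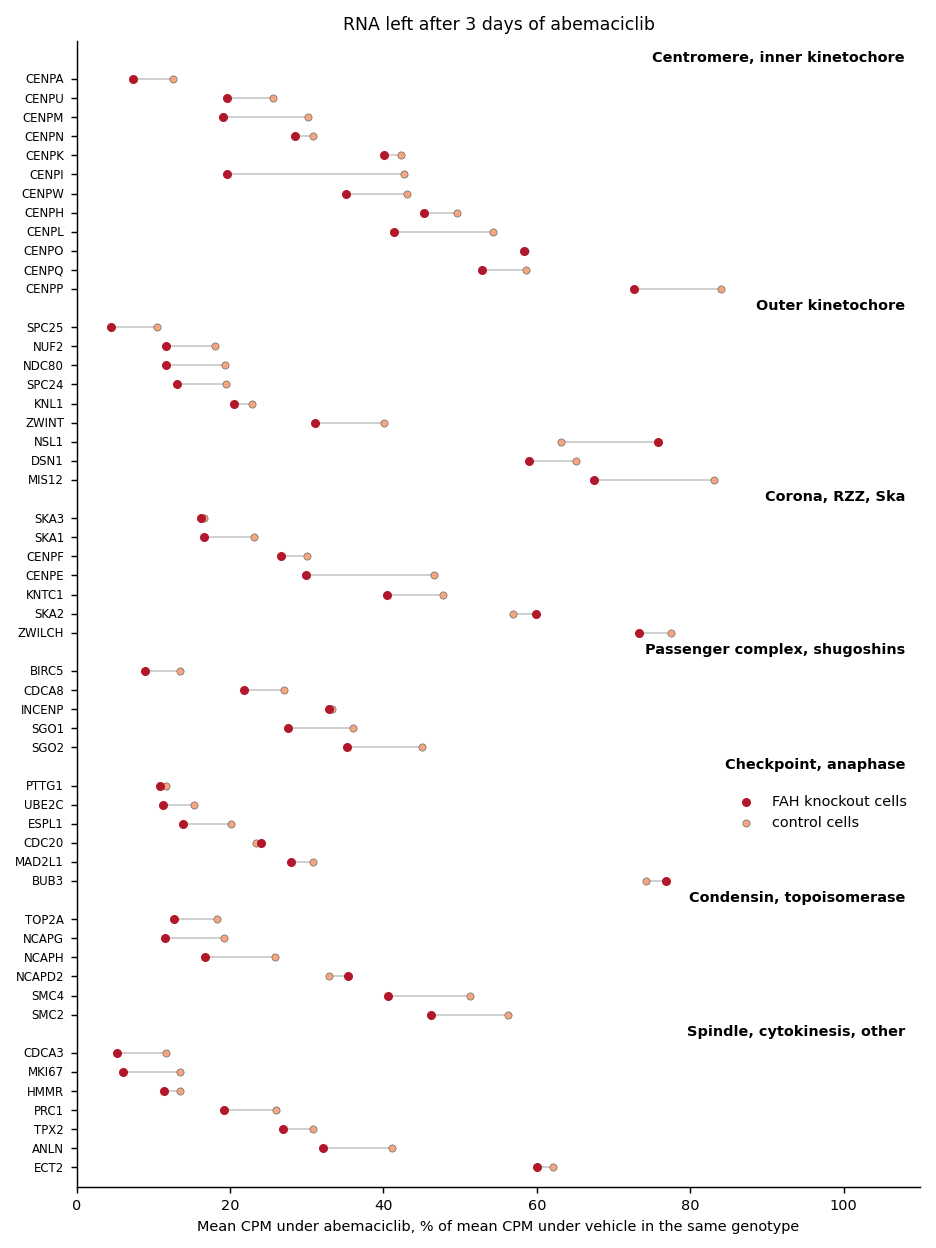
Mean CPM under abemaciclib as a percentage of mean CPM under vehicle in the same genotype (horizontal axis, linear), for each of the 52 genes (rows, by role), with dark points for FAH knockout cells and light points for control cells, means of 4 libraries. SPC25 sits furthest left at 4.52% in knockout and 10.5% in control cells, and CENPP, MIS12, ZWILCH, BUB3 and NSL1 lie furthest right.

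Many of the 52 genes were also at a lower level in FAH knockout than in control cells, with or without the drug. Under abemaciclib knockout cells had less RNA of 46 of the 52 genes than control cells and more of none, where 11.3% of all tested genes were lower and 18.6% higher. The 6 that did not pass were CENPO, NSL1, SKA3, INCENP, BUB3 and NCAPD2, of which NSL1 passed under either rescaling of the libraries. In 45 of the 52 every knockout library lay below every control library under abemaciclib, against 10.1% of all tested genes, and the median log2 difference was -0.52, against 0.04 for all tested genes. On the log2(CPM + 1) scale the difference reached 2-fold in 2 of the 52, MKI67 and NUF2, against 0.345% of all tested genes, and under vehicle in none of the 52, against 0.197%. By mean CPM, with no pseudocount, 6 of the 52 were below 50% of the control level under abemaciclib, SPC25 at 37.1%, NUF2 at 41.3%, MKI67 at 42.5%, CDCA3 at 44.2%, CENPI at 45.4% and BIRC5 at 48.7%. That count was not made over all tested genes. Under vehicle 30 of the 52 were lower in knockout cells, none was higher and 22 did not pass, where 13.1% of all tested genes were lower and 24.6% higher. There 34 of the 52 had groups that did not overlap, against 12.7% of all tested genes, and the median log2 difference was -0.27, against 0.06 for all tested genes. In sum the 52 genes of knockout cells held 71.0% of the control level under abemaciclib and 81.0% under vehicle. Under median-of-ratios rescaling 47 of the 52 were lower in knockout cells under abemaciclib, with 2408 lower and 2126 higher over all genes, where CPM as deposited gave 1837 lower and 3020 higher. Under vehicle that rescaling gave 41 of the 52, with 2983 lower and 2825 higher over all genes, against 2121 lower and 3987 higher. The genes that it added there were CENPA, CENPL, CENPP, CENPU, DSN1, ESPL1, MKI67, NCAPG, NCAPH, SGO2 and ZWILCH.

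The 12 genes of the centromere and inner kinetochore code for the CENP-A histone and for proteins of the constitutive centromere-associated network around it. Under abemaciclib 12 of the 12 fell in knockout cells and 11 in control cells, and knockout cells were below control cells for 11 with the drug and for 6 with vehicle. Over all tested genes 27.4% fell in knockout and 31.1% in control cells. Knockout was below control for 11.3% with the drug and 13.1% with vehicle, and these shares also stand beside the role counts below. CENPA (ENSG00000115163, chr2:26764289-26801067) codes for the histone that marks the centromere. It was at 2.42, 3.01, 1.78 and 1.73 CPM in knockout libraries under abemaciclib and 5.14, 4.91, 4.80 and 2.99 CPM in control libraries under abemaciclib, against 30.9, 30.3, 32.2 and 29.3 CPM in knockout libraries under vehicle and 32.5, 37.9, 36.1 and 35.7 CPM in control libraries under vehicle. The fall under the drug was wide of the spread in both genotypes, and the knockout and control libraries under abemaciclib overlapped through 1 low control library. Exons of CENPA overlap those of SLC35F6 on the same strand, so part of its reads may be shared. CENPA fell by 3.31 on the log2 scale in knockout cells (SE 0.112, limma adjusted p = 1.0e-22) and by 2.76 in control cells (SE 0.112, adjusted p = 1.7e-20). Between genotypes it differed by -0.75 under abemaciclib (limma adjusted p = 2.5e-06) and by -0.21 under vehicle (adjusted p = 0.15).

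CENPI (ENSG00000102384, chrX:101098218-101163681) and CENPM (ENSG00000100162, chr22:41938721-41947164) code for subunits of the same inner complex, with CENPH and CENPK. CENPI was at 1.19, 1.33, 1.19 and 0.999 CPM in knockout libraries under abemaciclib, 3.36, 2.98, 2.29 and 1.73 CPM in control libraries under abemaciclib, 5.82, 5.79, 6.54 and 5.91 CPM in knockout libraries under vehicle and 7.36, 6.15, 5.44 and 5.37 CPM in control libraries under vehicle. The vehicle groups overlapped and the drug groups did not. The knockout difference of CENPI was -0.01 under vehicle (limma, 95% interval -0.26 to 0.25) and -0.70 under abemaciclib (limma adjusted p = 4.3e-05), and its mean under the drug was 19.6% of vehicle in knockout and 42.6% in control cells. CENPM was at 5.12, 5.93, 6.12 and 5.90 CPM in knockout libraries under abemaciclib, 9.90, 12.05, 11.2 and 11.3 CPM in control libraries under abemaciclib, 28.9, 30.6, 28.9 and 32.1 CPM in knockout libraries under vehicle and 39.1, 38.1, 33.4 and 36.8 CPM in control libraries under vehicle. None of its 4 groups overlapped with another, and its knockout difference under abemaciclib was -0.84 on the log2 scale (SE 0.0721, limma adjusted p = 3.3e-11). Their partners CENPH and CENPK were left at 45.3% and 40.1% in knockout cells and 49.6% and 42.3% in control cells.

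CENPP (ENSG00000188312, chr9:92325484-92620533) and CENPQ (ENSG00000031691, chr6:49463378-49493107) code for subunits of the CENP-O class complex and fell least among the 12, with CENPO. CENPP was at 4.66, 4.78, 4.16 and 4.90 CPM in knockout libraries under abemaciclib, 6.35, 8.10, 6.12 and 5.01 CPM in control libraries under abemaciclib, 5.52, 5.59, 7.17 and 7.21 CPM in knockout libraries under vehicle and 7.56, 8.23, 8.16 and 6.505 CPM in control libraries under vehicle. In control cells the drug and vehicle libraries overlapped, and the log2 fold change of -0.23 did not pass (limma adjusted p = 0.087), with -0.38 in knockout cells (adjusted p = 0.007). The fall in control cells passed once replicate 2 under abemaciclib or replicate 4 under vehicle was left out, and that in knockout cells did not pass under quantile rescaling. CENPQ was at 4.85, 4.34, 4.63 and 4.54 CPM in knockout libraries under abemaciclib, 6.91, 5.78, 6.80 and 8.28 CPM in control libraries under abemaciclib, 9.11, 8.58, 7.88 and 9.15 CPM in knockout libraries under vehicle and 12.2, 12.7, 12.9 and 9.57 CPM in control libraries under vehicle. Its knockout libraries were below its control libraries under either treatment, with log2 differences of -0.50 under abemaciclib and -0.40 under vehicle (limma adjusted p = 0.00019 and 0.0016). CENPU, of the same complex, was left at 19.6% in knockout and 25.6% in control cells. CENPN, which reads the CENP-A nucleosome, was at 28.4% and 30.7%, and part of its reads may be shared with other genes.

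The 9 genes of the outer kinetochore all fell under the drug in both genotypes. Knockout cells were below control cells for 8 of the 9 with abemaciclib and for 4 with vehicle. The fall of MIS12 in control cells was lost in 6 alternative settings, both rescalings of the libraries among them. Its call as lower in knockout cells under abemaciclib was lost in 5. NUF2 (ENSG00000143228, chr1:163266576-163355764) codes for the partner of NDC80 in the rod that binds microtubules. It was at 2.56, 2.74, 2.46 and 3.45 CPM in knockout libraries under abemaciclib, 6.54, 5.87, 7.82 and 6.94 CPM in control libraries under abemaciclib, 25.2, 21.6, 26.2 and 23.7 CPM in knockout libraries under vehicle and 35.6, 40.3, 41.4 and 33.8 CPM in control libraries under vehicle. No 2 of these groups overlapped. The knockout difference was -1.04 under abemaciclib (SE 0.0910, limma adjusted p = 5.7e-11) and -0.62 under vehicle (adjusted p = 1.4e-06). SPC25 (ENSG00000152253, chr2:168834132-168913371) codes for a subunit at the inner end of that rod. It was at 1.51, 1.55, 1.02 and 0.545 CPM in knockout libraries under abemaciclib, 2.48, 3.33, 3.34 and 3.32 CPM in control libraries under abemaciclib, 26.1, 23.9, 26.7 and 25.5 CPM in knockout libraries under vehicle and 29.04, 31.002, 29.5 and 29.6 CPM in control libraries under vehicle. All knockout libraries lay below all control libraries under each treatment, with log2 differences of -0.96 under abemaciclib (limma adjusted p = 3.3e-08) and -0.21 under vehicle (adjusted p = 0.14). The lowest library held 6 reads of SPC25, and in 11 of the 16 libraries its count was not whole, so part of its reads may be shared with other features. NDC80 itself was left at 11.6% in knockout and 19.4% in control cells, and KNL1, the scaffold for checkpoint proteins, at 20.5% and 22.9%.

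The 7 genes of the corona, the RZZ complex and the Ska complex also all fell in both genotypes under abemaciclib, and knockout cells were below control cells for 6 with the drug and for 5 with vehicle. CENPE (ENSG00000138778, chr4:103105806-103198409) codes for the motor that carries chromosomes to the spindle equator. It was at 9.33, 9.56, 10.9 and 10.7 CPM in knockout libraries under abemaciclib, 17.7, 14.8, 13.3 and 13.7 CPM in control libraries under abemaciclib, 35.2, 32.3, 33.1 and 34.9 CPM in knockout libraries under vehicle and 30.9, 34.02, 33.4 and 29.7 CPM in control libraries under vehicle. Under vehicle the groups overlapped, with a log2 difference of 0.08 (limma, 95% interval -0.07 to 0.23), and under abemaciclib they did not (-0.51, limma adjusted p = 1.7e-06). KNTC1 (ENSG00000184445, chr12:122527246-122626396) codes for the Rod subunit of the RZZ complex, which brings checkpoint proteins to unattached kinetochores. It was at 9.79, 8.32, 9.34 and 9.26 CPM in knockout libraries under abemaciclib, 15.3, 13.2, 14.4 and 13.1 CPM in control libraries under abemaciclib, 22.8, 22.5, 23.6 and 21.8 CPM in knockout libraries under vehicle and 31.3, 30.3, 27.6 and 28.1 CPM in control libraries under vehicle. All 4 groups were apart, and the knockout difference was -0.56 under abemaciclib and -0.35 under vehicle (limma adjusted p = 7.0e-08 and 9.8e-05).

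SKA1 (ENSG00000154839, chr18:50374995-50394173) and SKA3 (ENSG00000165480, chr13:21153595-21176602) code for subunits of the complex that helps the Ndc80 rod follow shrinking microtubules. SKA1 was at 0.732, 0.885, 1.36 and 0.817 CPM in knockout libraries under abemaciclib, 1.68, 1.49, 2.29 and 1.64 CPM in control libraries under abemaciclib, 5.60, 5.89, 5.28 and 6.10 CPM in knockout libraries under vehicle and 9.08, 6.48, 8.06 and 7.16 CPM in control libraries under vehicle. SKA3 was at 1.74, 1.51, 1.27 and 1.91 CPM in knockout libraries under abemaciclib, 1.77, 2.89, 2.04 and 1.54 CPM in control libraries under abemaciclib, 9.36, 8.78, 10.7 and 10.6 CPM in knockout libraries under vehicle and 12.6, 12.6, 13.4 and 11.2 CPM in control libraries under vehicle. The drug groups of SKA1 were apart by genotype and those of SKA3 overlapped. The knockout difference under abemaciclib was -0.51 for SKA1 (limma adjusted p = 0.0013) and -0.22 for SKA3 (95% interval -0.46 to 0.02, adjusted p = 0.16), while SKA3 was lower in knockout cells under vehicle (-0.31, adjusted p = 0.036). That call of SKA3 was lost in 8 alternative settings, and the same call of SKA1 (-0.36) in 4. The lowest libraries held 8 reads of SKA1 and 15 of SKA3, and the added pseudocount pulls fold changes at these levels toward 0.

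BIRC5 (ENSG00000089685, chr17:78214186-78225636) codes for survivin, the subunit that brings the chromosomal passenger complex to the centromere. It was at 11.6, 11.1, 9.79 and 10.6 CPM in knockout libraries under abemaciclib, 21.95, 21.7, 22.01 and 22.9 CPM in control libraries under abemaciclib, 118, 122, 122 and 122 CPM in knockout libraries under vehicle and 162, 167, 163 and 166 CPM in control libraries under vehicle. Its 4 groups were far apart compared with the spread within each. Its count was whole in only 8 of the 16 libraries, so part of its reads may be shared with other features. BIRC5 had a knockout difference of -0.98 on the log2 scale under abemaciclib (SE 0.0471, limma adjusted p = 1.4e-17) and of -0.44 under vehicle (adjusted p = 3.2e-09). INCENP codes for the scaffold of the same complex. INCENP was at 14.3, 15.6, 13.9 and 15.7 CPM in knockout libraries under abemaciclib, 17.7, 14.6, 14.6 and 16.7 CPM in control libraries under abemaciclib, 49.9, 41.4, 43.2 and 46.4 CPM in knockout libraries under vehicle and 46.1, 50.04, 52.2 and 43.04 CPM in control libraries under vehicle. It fell under the drug in both genotypes (-1.54 in knockout and -1.53 in control cells, log2), and the genotypes overlapped under each treatment, with a 95% interval of -0.23 to 0.05 under abemaciclib. CDCA8, the borealin subunit, and the shugoshins SGO1 and SGO2, which shield centromeric cohesin, were all lower in knockout cells under abemaciclib, with log2 differences of -0.54, -0.64 and -0.51. Over the 5 genes of this role all fell under the drug in both genotypes, and 3 were lower in knockout cells under vehicle.

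The 6 checkpoint and anaphase genes held the most CPM of any role, 205.6 ± 5.44 in knockout cells under abemaciclib, 278.2 ± 9.26 in control cells under abemaciclib, 1071 ± 14.3 in knockout cells under vehicle and 1405 ± 16.7 in control cells under vehicle (SD, n = 4 each). All 6 fell under the drug in both genotypes. Of these 5 were lower in knockout cells under abemaciclib and 4 under vehicle. PTTG1 (ENSG00000164611, chr5:160421822-160428744) codes for securin, the inhibitor of separase. It was at 31.5, 28.03, 31.6 and 32.4 CPM in knockout libraries under abemaciclib, 47.7, 53.4, 52.1 and 50.2 CPM in control libraries under abemaciclib, 288, 275, 290.5 and 278 CPM in knockout libraries under vehicle and 433, 436, 443 and 439 CPM in control libraries under vehicle. PTTG1 had the largest fall of the 52 on the log2 scale in control cells, -3.08 (SE 0.0415, limma adjusted p = 6.8e-34), and a knockout difference of like size under abemaciclib and vehicle, -0.70 and -0.63 (adjusted p = 2.7e-15 and 3.7e-14). The genome holds processed copies of PTTG1, so its reads may be split among them. ESPL1, which codes for separase, was left at 13.8% in knockout and 20.1% in control cells.

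UBE2C (ENSG00000175063, chr20:45812576-45816957) codes for a ubiquitin-conjugating enzyme that works with the anaphase-promoting complex. It was at 49.8, 51.7, 54.7 and 49.8 CPM in knockout libraries under abemaciclib, 84.3, 90.2, 89.6 and 89.3 CPM in control libraries under abemaciclib, 463, 446, 460.3 and 458 CPM in knockout libraries under vehicle and 570.0, 591, 566 and 574 CPM in control libraries under vehicle. No groups overlapped, and the knockout difference was -0.77 under abemaciclib (limma adjusted p = 2.4e-18) and -0.33 under vehicle (adjusted p = 2.0e-09). CDC20, the activator of that complex, was also lower in knockout cells, with log2 differences of -0.24 under abemaciclib and -0.29 under vehicle (limma adjusted p = 4.7e-05 and 2.0e-06). BUB3, which recruits checkpoint proteins to KNL1, was the least lowered of the 52 under the drug in knockout cells. BUB3 was at 60.4, 64.3, 63.4 and 61.8 CPM in knockout libraries under abemaciclib, 57.6, 62.9, 64.3 and 54.4 CPM in control libraries under abemaciclib, 73.2, 84.2, 82.2 and 85.5 CPM in knockout libraries under vehicle and 81.4, 78.9, 82.2 and 79.9 CPM in control libraries under vehicle. Knockout and control libraries overlapped under each treatment, with 95% intervals of the log2 difference of -0.04 to 0.17 under abemaciclib and -0.09 to 0.11 under vehicle. MAD2L1, the checkpoint protein that binds CDC20, was left at 27.95% in knockout and 30.8% in control cells.

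TOP2A (ENSG00000131747, chr17:40388516-40417950) codes for the topoisomerase that untangles sister chromatids, and NCAPG (ENSG00000109805, chr4:17810902-17844862) for a subunit of condensin I. TOP2A was at 27.4, 28.4, 27.5 and 31.3 CPM in knockout libraries under abemaciclib, 53.5, 48.4, 51.2 and 53.5 CPM in control libraries under abemaciclib, 231, 223, 222 and 230.1 CPM in knockout libraries under vehicle and 288, 279, 288 and 272 CPM in control libraries under vehicle. NCAPG was at 3.38, 2.30, 2.46 and 3.54 CPM in knockout libraries under abemaciclib, 5.79, 5.43, 5.44 and 5.88 CPM in control libraries under abemaciclib, 26.4, 26.1, 25.97 and 23.01 CPM in knockout libraries under vehicle and 30.6, 29.2, 28.02 and 29.4 CPM in control libraries under vehicle. In each gene the 4 groups were apart, with the knockout libraries under abemaciclib lowest. The log2 knockout difference of TOP2A was -0.83 under abemaciclib and -0.31 under vehicle (limma adjusted p = 5.5e-17 and 3.8e-07), and that of NCAPG was -0.77 (adjusted p = 2.3e-08) and -0.20 (adjusted p = 0.076). NCAPD2, another condensin I subunit, overlapped between genotypes under each treatment, with a 95% interval of -0.26 to 0.04 under abemaciclib. Under vehicle it was called lower in knockout cells (-0.21, limma adjusted p = 0.022), a call that was lost without replicate 2 or 4 of the knockout libraries under vehicle or replicate 3 of the control libraries under vehicle (adjusted p of 0.0587 to 0.0803). In 11 of the 16 libraries the count of NCAPD2 was not whole. Over the 6 genes of condensin I, the SMC pair and TOP2A, all fell under the drug in both genotypes, 5 were lower in knockout cells under abemaciclib and 4 under vehicle.

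MKI67 (ENSG00000148773, chr10:128096659-128126385) codes for Ki-67, which coats mitotic chromosomes and is read as a marker of cycling cells. It was at 5.21, 5.14, 5.01 and 5.18 CPM in knockout libraries under abemaciclib, 13.2, 12.5, 11.7 and 10.9 CPM in control libraries under abemaciclib, 82.7, 86.4, 84.5 and 83.2 CPM in knockout libraries under vehicle and 85.5, 89.6, 95.4 and 88.1 CPM in control libraries under vehicle. The vehicle groups overlapped, with a log2 difference of -0.09 (limma, 95% interval -0.21 to 0.03). Under abemaciclib every knockout library was below every control library, with a log2 difference of -1.09 (SE 0.0573, limma adjusted p = 1.2e-16). HMMR (ENSG00000072571, chr5:163460203-163491945) codes for a microtubule protein of the spindle poles. It was at 3.48, 3.90, 3.48 and 3.45 CPM in knockout libraries under abemaciclib, 6.63, 6.66, 5.01 and 5.59 CPM in control libraries under abemaciclib, 29.3, 33.4, 30.9 and 32.1 CPM in knockout libraries under vehicle and 46.3, 38.6, 47.6 and 44.5 CPM in control libraries under vehicle. HMMR was lower in knockout cells under both treatments, with log2 differences of -0.60 under abemaciclib and -0.48 under vehicle (limma adjusted p = 5.5e-07 and 1.9e-05). The other 5 genes of this role are CDCA3, a mitotic entry factor, PRC1, which bundles midzone microtubules, TPX2, an activator of Aurora A, and ANLN and ECT2, which build the cleavage furrow. All 7 fell under the drug in both genotypes, all 7 were lower in knockout cells under abemaciclib, and 4 were lower under vehicle.

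**Figure D2:**
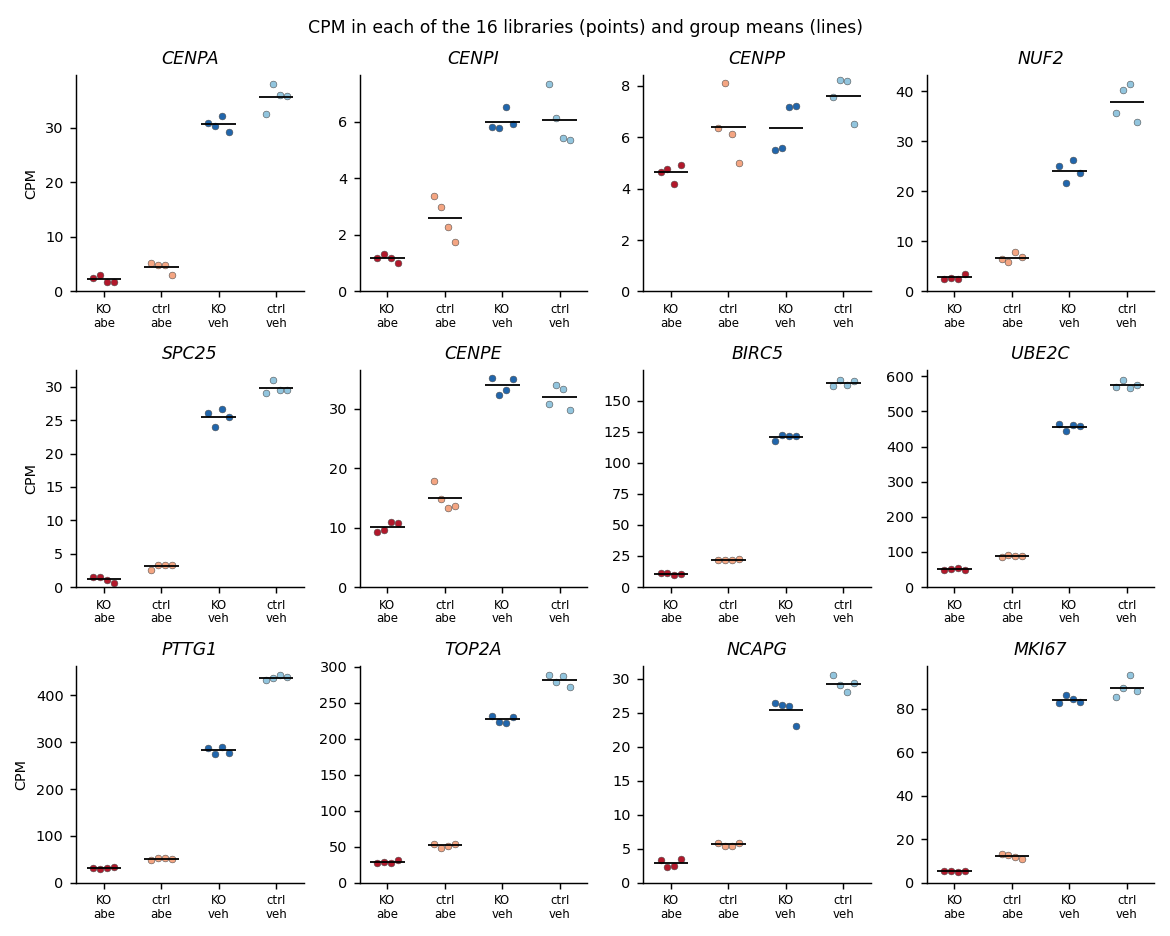
CPM (vertical axes, linear from 0, a scale for each gene) in each of the 16 libraries for 12 of the genes, with groups from left to right FAH knockout and control under abemaciclib, then FAH knockout and control under vehicle, points for libraries and lines for means of 4. MKI67, CENPI and CENPE overlap between genotypes under vehicle and are apart under abemaciclib, while PTTG1, BIRC5 and UBE2C are apart under both.

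Subunits of the Ndc80 complex kept small shares of their RNA under the drug, and subunits of the Mis12 complex kept larger ones. The complexes were grouped from general knowledge after the values had been seen, so the pattern is a description with no test. The 4 genes of the Ndc80 complex were left at 4.52 to 13.1% in knockout cells and 10.5 to 19.5% in control cells. The 4 genes of the Mis12 complex, to which the Ndc80 complex docks, were left at 59.0 to 78.9% in knockout cells and 63.1 to 83.1% in control cells, with PMF1, the subunit that is not among the 52, at 78.9% and 75.2%. Condensin I and II were closer, with a gap in control cells and overlapping ranges in knockout cells. The non-SMC subunits of condensin I were left at 11.5 to 35.4% in knockout and 19.2 to 32.9% in control cells, the SMC pair that both condensins share at 40.6 to 46.2% and 51.2 to 56.2%, and the 3 non-SMC subunits of condensin II, which are not among the 52, at 31.8 to 57.2% and 47.01 to 63.98%. In the chromosomal passenger complex BIRC5 was left at 8.91% in knockout and 13.5% in control cells, CDCA8 at 21.8% and 26.98%, and INCENP at 32.9% and 33.2%. Other complexes were split within themselves. In the Ska complex SKA3 and SKA1 were left at 16.3% and 16.6% in knockout cells, 16.6% and 23.1% in control cells, and SKA2 at 59.9% and 56.9%. In the RZZ complex KNTC1 was left at 40.4% and 47.8%, ZWILCH at 73.4% and 77.5%, and ZW10, which is not among the 52, at 89.1% and 79.5%. CENPW was left at 35.1% in knockout and 43.1% in control cells, and CENPT, a subunit of the same complex outside the 52, at 105.1% and 107.2%. The 5 genes of the cohesin ring examined, none among the 52, were left at 52.8 to 98.9% in knockout cells and 52.3 to 112.5% in control cells, a range above that of separase and securin.

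**Figure D3:**
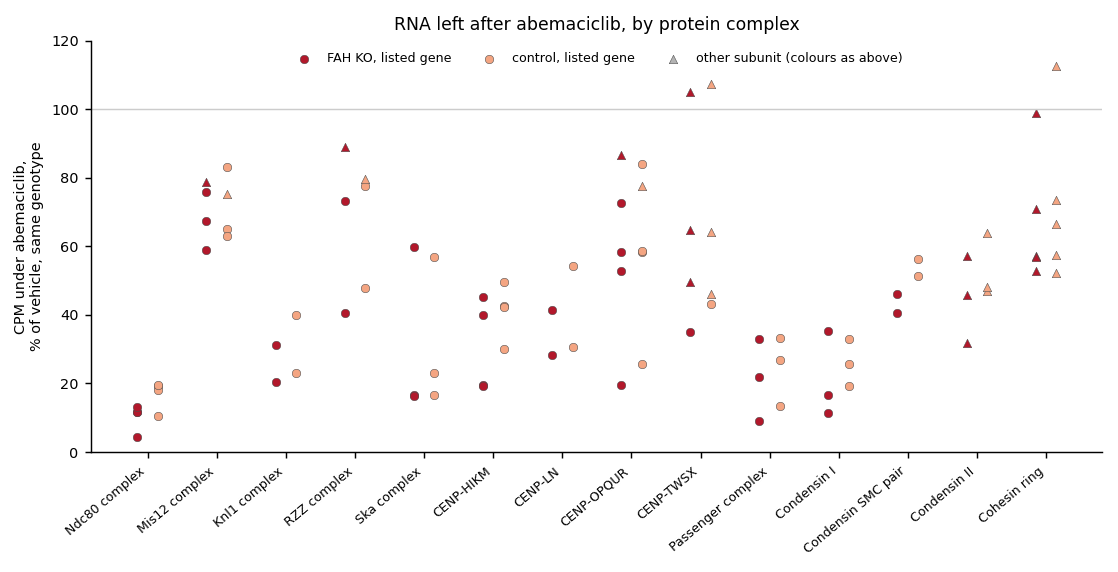
Mean CPM under abemaciclib as a percentage of vehicle in the same genotype (vertical axis, linear) for the subunits of 14 complexes (horizontal axis), dark for FAH knockout and light for control cells, circles for the 52 genes and triangles for other subunits. The Ndc80 complex lies at 4.52 to 19.5% and the Mis12 complex at 59.0 to 83.1% over both genotypes.

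For part of the set the fall under the drug was deeper in knockout cells on the log2 scale, as a ratio to vehicle. In CPM the sum of the 52 fell by less in knockout cells, from 3187 to 821.5, than in control cells, from 3935 to 1156.5. The interaction, the drug effect in knockout cells minus that in control cells, was below 0 and past the threshold for 20 of the 52 genes, where 6.16% of all tested genes passed in that direction, and above 0 for 1, where 4.68% did. Its median over the 52 was -0.28, against -0.03 for all tested genes. The 46 of the 52 with a negative estimate are by definition the 46 that fell further in knockout cells. MKI67 had an interaction of -1.001 on the log2(CPM + 1) scale (SE 0.0811, limma adjusted p = 1.0e-10), with 6.10% left in knockout and 13.5% in control cells. CDCA3 (-0.76), SPC25 (-0.74), CENPI (-0.70), CENPE (-0.59), NCAPG (-0.57), CENPM (-0.56), CENPA (-0.55), NDC80 (-0.54), BIRC5 (-0.54) and TOP2A (-0.52) followed in order of size on that scale. The added 1 shrinks differences of low genes such as SPC25, which by mean CPM had 4.52% left in knockout and 10.5% in control cells. By role the negative calls took 4 of 12 centromere genes, 4 of 9 outer kinetochore genes, CENPE alone of the 7 corona and Ska genes, 2 of 5 passenger and shugoshin genes, 2 of 6 checkpoint and anaphase genes, 4 of 6 condensin and topoisomerase genes and 3 of 7 of the rest. NSL1, a subunit of the Mis12 complex, was the 1 positive call, at 0.26 (SE 0.0770, limma adjusted p = 0.024). It was at 27.8, 28.9, 26.1 and 26.4 CPM in knockout libraries under abemaciclib, 30.6, 28.5, 32.3 and 28.4 CPM in control libraries under abemaciclib, 38.4, 34.1, 36.2 and 35.4 CPM in knockout libraries under vehicle and 48.6, 45.2, 47.3 and 48.6 CPM in control libraries under vehicle. Its genotypes were apart under vehicle and overlapped under abemaciclib. The call of NSL1 was lost without replicate 2 of any group but control under vehicle, and without replicate 1 of that group. PTTG1, with one of the deepest falls, had an interaction of -0.07 (95% interval -0.19 to 0.05), and CDC20 of 0.05 (-0.08 to 0.17). The calls of CDCA8, ESPL1, NUF2 and CENPA were lost in 17, 15, 11 and 6 of the 23 alternative settings.

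**Figure D4:**
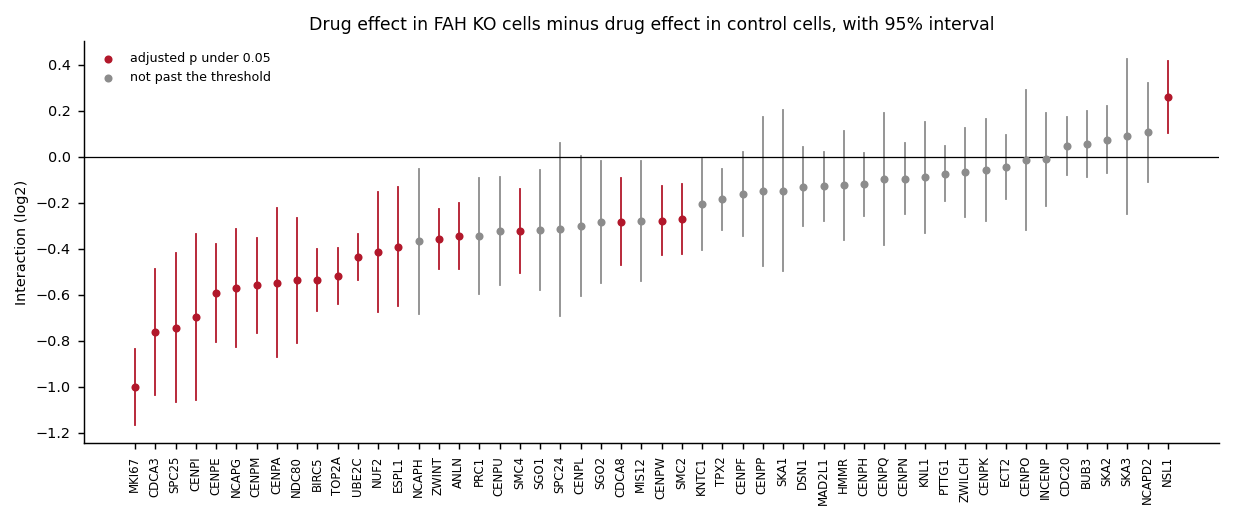
Interaction estimates in log2 units (vertical axis), the drug effect in FAH knockout cells minus that in control cells, for the 52 genes in order, with 95% intervals from limma and dark red for the 21 past the threshold. They run from -1.001 for MKI67 to 0.26 for NSL1, and 46 of 52 lie below 0.

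Knockout differences under abemaciclib and under vehicle ranked the genes differently. Across the 52 genes the log2 difference under abemaciclib and that under vehicle, which share no library, had a Pearson r of 0.296 and a Spearman rho of 0.267, given as a description across genes. The difference was lower under abemaciclib for 46 of the 52, which restates the count of negative interactions and is no separate result. MKI67, CDCA3, CENPI, CENPE, NDC80, ANLN and ZWINT lay between -0.09 and 0.08 under vehicle, where none passed but MKI67 under median-of-ratios rescaling, and between -1.09 and -0.37 under abemaciclib, where all passed. PTTG1, HMMR and ECT2 lay near the line of equal effect, at -0.70, -0.60 and -0.45 under abemaciclib and -0.63, -0.48 and -0.41 under vehicle. These genes were picked out after their values had been seen.

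**Figure D5:**
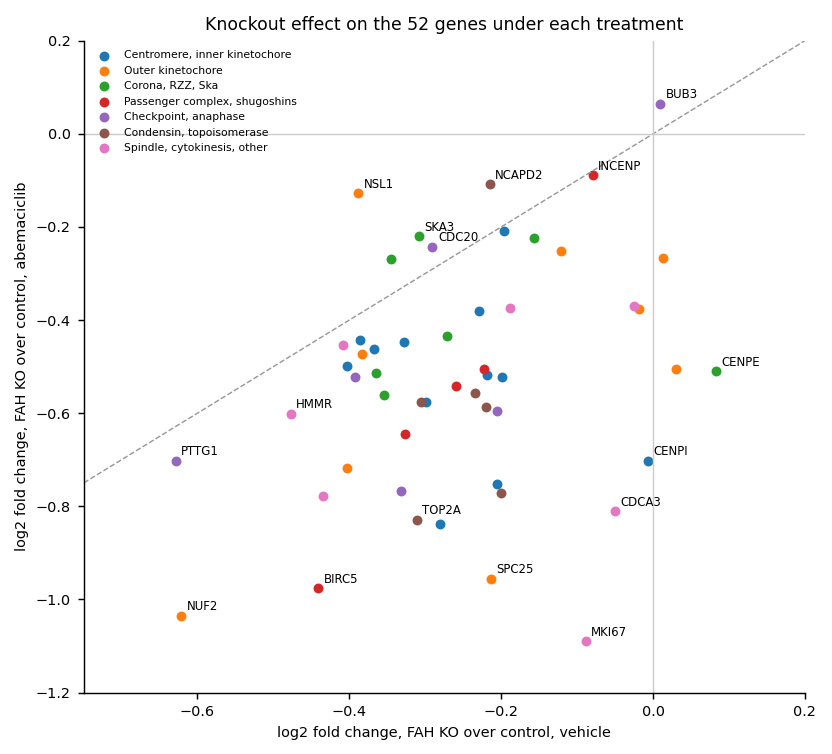
Log2 fold change of FAH knockout over control cells under abemaciclib (vertical axis) and under vehicle (horizontal axis) for the 52 genes, coloured by role, with a dashed line of equal effect. Of the 52 points 46 lie below the line, which are the genes with a negative interaction, and MKI67 lies lowest at -1.09 under abemaciclib and -0.09 under vehicle.

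Genes that work beside the 52 were read from lists written with the same earlier results known. Of 10 other centromere genes 8 fell under abemaciclib in control cells and none rose, where 31.1% of all tested genes fell and 19.6% rose. HJURP, the chaperone that places CENP-A, had a log2 fold change of -2.93 in knockout and -2.54 in control cells (limma adjusted p = 2.0e-23 and 1.2e-21). CENPS had -0.94 and -1.06, and OIP5, which licenses CENP-A loading, had -1.32 and -1.02. Of 10 other kinetochore and checkpoint genes 8 fell in control cells and none rose. SPAG5, a spindle and kinetochore protein, had -2.36 in knockout and -1.85 in control cells, KNSTRN, its partner, -1.37 and -1.35, and TRIP13, which recycles checkpoint complexes, -0.92 and -0.81. Of 14 other cohesin genes 10 fell in control cells and 2 rose. ESCO2 and CDCA5, which secure cohesion during replication, had -2.45 and -2.22 in knockout cells and -1.94 and -1.70 in control cells, while SMC3 of the ring had -0.90 and -0.92. All 3 condensin II genes fell in control cells, with -1.52 in knockout and -1.03 in control cells for NCAPG2, -1.07 and -1.01 for NCAPH2, and -0.79 and -0.64 for NCAPD3. Of 17 genes of the anaphase-promoting complex and its partners 10 fell and 1 rose in control cells, with FBXO5, its inhibitor, at -2.49 in knockout and -2.46 in control cells, UBE2S, its chain-extending enzyme, at -1.87 and -1.96, and the subunit ANAPC15 at -0.33 and -0.71.

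Between genotypes these neighbours had calls in both directions, which were not tested against the shares over all tested genes. The calls higher in knockout cells are not read as a result, since 18.6% of all tested genes were higher. Under abemaciclib the counts lower and higher in knockout cells were 4 and 2 of 10 centromere genes, 2 and 1 of 10 kinetochore and checkpoint genes, 5 and 1 of 14 cohesin genes, 2 and 0 of 3 condensin II genes, and 1 and 4 of 17 genes of the anaphase-promoting complex, where 11.3% of all tested genes were lower and 18.6% higher. For the named neighbours the log2 difference was -0.74 for CDCA5, -0.70 for SPAG5, -0.69 for ESCO2, -0.64 for NCAPG2 and -0.59 for HJURP. It was -0.57 for OIP5, -0.44 for TRIP13, -0.31 for FBXO5 and -0.29 for NCAPD3, and all of these passed the threshold. CENPS (-0.18), KNSTRN (-0.06), UBE2S (-0.06), NCAPH2 (-0.04) and SMC3 (0.02) did not pass. ANAPC15 was higher in knockout cells past the threshold, at 0.14. Among the neighbours named above the interaction was past the threshold for SPAG5 (-0.51, limma adjusted p = 0.00023), CDCA5 (-0.52, adjusted p = 4.6e-06), NCAPG2 (-0.49, adjusted p = 0.0034) and, in the other direction, ANAPC15 (0.38, adjusted p = 0.00086). Over the whole lists the interaction passed below 0 and above 0 for 0 and 0 of 10 centromere genes, 1 and 2 of 10 kinetochore and checkpoint genes, 1 and 0 of 14 cohesin genes, 1 and 0 of 3 condensin II genes, and 0 and 3 of 17 genes of the anaphase-promoting complex, where 6.16% of all tested genes passed below 0 and 4.68% above.

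Promoter sequence was read beside the RNA, since many genes of this kind are known to carry a CHR element, spelled TTTGAA or TTTAAA, near the start and CCAAT boxes before it. RefSeq promoters of GRCh38.p14, from 250 bases before to 50 after the start, were found for 43 of the 52, and those of CENPH, CENPL, CENPM, KNL1, KNTC1, BIRC5, BUB3, TPX2 and UBE2C were not in the table. Several starts were listed for 8 of the 43 (PTTG1, ZWINT, SGO2, SMC4, SMC2, ECT2, MIS12 and CENPP). For every gene only the first listed start was read, so words at other starts were missed. On either strand 30 of the 43 held a CHR word (69.8%, against 24.3% of 27305 promoters), and 29 held CCAAT (67.4%, against 35.7%). A CHR word starting from 60 bases before to 40 after the start was in 25 (58.1%, against 8.17%), and 17 had that and CCAAT (39.5%, against 3.20%). The E2F words TTTCCCGC, TTTGGCGC, TTTCGCGC and TTTGCCGC were in 3 (6.98%, against 3.33%). The genes with a CHR word near the start had a median of 16.8% left in knockout and 25.8% in control cells (25 genes), and those with none there 37.8% and 44.8% (18 genes). The ranges overlapped, at 4.52 to 59.98% against 12.6 to 75.8% in knockout cells and 10.5 to 62.1% against 18.3 to 84.0% in control cells. ECT2, with a CHR word there and CCAAT, was left at 62.1% in control cells, and SPC24, with no CHR word, at 19.5%. A match is a run of letters and shows no binding, and these shares carry no test.

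The 150 bases before the start are shown for 5 genes with a CHR word and 3 weakly lowered genes that have no motif word in this stretch, 5′ to 3′ on the strand of the gene, with CHR and CCAAT words of either strand in capitals. CCAAT on the other strand reads ATTGG. The genes shown were picked by their words and their levels. Weakly lowered genes with motif words in the same stretch are not shown, such as ECT2 (62.1% left in control cells) and MIS12 (83.1%).
CENPA, chr2:26785906-26786055, forward strand: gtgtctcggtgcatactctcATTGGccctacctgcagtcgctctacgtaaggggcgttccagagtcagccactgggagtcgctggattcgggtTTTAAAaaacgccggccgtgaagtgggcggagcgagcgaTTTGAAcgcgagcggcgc
MKI67, chr10:128126424-128126573, reverse strand: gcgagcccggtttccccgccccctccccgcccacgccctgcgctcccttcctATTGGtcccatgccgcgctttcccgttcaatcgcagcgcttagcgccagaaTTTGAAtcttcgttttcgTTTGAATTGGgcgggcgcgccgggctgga
HMMR, chr5:163460482-163460631, forward strand: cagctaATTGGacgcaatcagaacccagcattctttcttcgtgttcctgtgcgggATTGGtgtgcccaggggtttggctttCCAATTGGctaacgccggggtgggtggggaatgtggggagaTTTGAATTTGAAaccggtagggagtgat
NCAPG, chr4:17810829-17810978, forward strand: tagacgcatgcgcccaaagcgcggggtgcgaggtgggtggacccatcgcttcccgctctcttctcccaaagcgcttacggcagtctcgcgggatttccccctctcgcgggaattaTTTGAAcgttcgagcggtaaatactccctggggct
INCENP, chr11:62123861-62124010, forward strand: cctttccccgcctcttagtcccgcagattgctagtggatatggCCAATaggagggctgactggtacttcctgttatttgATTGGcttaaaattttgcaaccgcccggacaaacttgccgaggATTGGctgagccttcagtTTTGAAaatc
ZWILCH, chr15:66505176-66505325, forward strand: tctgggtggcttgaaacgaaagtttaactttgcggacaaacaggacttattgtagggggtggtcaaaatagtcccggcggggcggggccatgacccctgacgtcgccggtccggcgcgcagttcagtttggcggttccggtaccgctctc
DSN1, chr20:36773764-36773913, reverse strand: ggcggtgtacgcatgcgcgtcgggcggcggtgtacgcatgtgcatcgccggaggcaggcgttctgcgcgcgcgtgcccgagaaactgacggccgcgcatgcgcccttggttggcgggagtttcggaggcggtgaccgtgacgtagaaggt
NSL1, chr1:212791778-212791927, reverse strand: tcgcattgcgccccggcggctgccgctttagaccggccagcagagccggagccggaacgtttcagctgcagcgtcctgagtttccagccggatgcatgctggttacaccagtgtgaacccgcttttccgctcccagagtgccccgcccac
CENPA and MKI67 hold 2 CHR words each, and HMMR has 2 in a row, TTTGAATTTGAA, shortly before the start. NCAPG has 1 and no CCAAT. INCENP holds 1 CHR word and 3 CCAAT words, fell under the drug in both genotypes, and did not differ past the threshold between genotypes. ZWILCH, DSN1 and NSL1 were left at 73.4%, 59.04% and 75.8% in knockout cells and 77.5%, 65.1% and 63.1% in control cells.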

How the data were processed

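RNA of 16 T47D libraries, 4 in each of 4 groups, was analysed from 1 table of 78986 features, 92 of them ERCC spike-in controls that were left out. The deposited values are read counts scaled to a sum of 1000000 in each library (CPM). Reads were aligned with STAR 2.7.11, handled with SAMtools 1.22.1, counted with featureCounts of Subread 2.1.1 and summarised with MultiQC 1.32 on GRCh38, per the submitters' processing notes. How strand and reads with several matches were handled, and with which annotation, is not given in the sources used here. Per the labels' protocols, a sequencing service extracted RNA and made cDNA libraries by tagmentation, from cells in high-glucose DMEM with serum.

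The most frequent low value of each library was taken as what 1 read is worth. This gave 9915775 to 11963096 assigned reads per library, and 70.2 to 71.8% of the values above 0 were whole within 0.02 reads, too few for a test of counts. Members whole in 8 or fewer libraries (CENPN, SPC25, SKA2, NCAPD2, INCENP, BIRC5 and PRC1, 7 in all) are uncertain, since part of their reads may be shared. In GENCODE 29, 20 of the 52 genes overlap an exon of another gene, CENPN, NCAPD2 and PRC1 among the 7. For CENPA and PRC1 the overlap is with a gene on the same strand. Gene positions are from that release. Counting error grows as levels fall, since 1 CPM is about 10 reads, and reads are not counted by molecule.

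CPM were taken to log2(CPM + 1) with a pseudocount of 1, which understates the change of low genes. The filter of 1 CPM in at least 4 libraries left 16218 genes. In R 4.3.3, limma 3.58.1 estimated 4 group means from all 16 libraries, using empirical Bayes with trend, and tests were two-sided. In each of 5 comparisons p-values were adjusted over all tested genes by Benjamini-Hochberg. Calls are at an adjusted p under 0.05. Means, SDs and percentages of vehicle are of CPM.

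The 52 members, their roles, the neighbouring lists and the promoter words were chosen with earlier results of these data known. Values in every library are given for 18 members: in each role the largest change in each group comparison and in the interaction, and any member that did not fall in control cells. INCENP, BUB3 and NSL1 were added after their values were seen. Neighbours named are up to 3 of a list with the largest drug effect in control cells. Alternatives were pseudocounts of 0.1 and 0.5, no filter, median-of-ratios and quantile rescaling, no trend, only the 8 libraries compared, replicate block, and each library left out.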

Additional observations from a re-analysis of the deposited data

Results flagged for a closer look

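Single libraries stood apart from the other 3 of their group in 12 of 208 sets of 4 values, by a gap to the nearest above Dixon's critical share of the range, and chance alone flags about 1 in 20 such sets. Among knockout libraries under abemaciclib, replicate 2 had 3.9 CPM of HMMR, against 3.45 to 3.48 CPM in the others. Among control libraries under abemaciclib, replicate 4 had 2.99 CPM of CENPA (others 4.8 to 5.14), 5.49 CPM of SPC24 (others 3.27 to 3.48) and 17.4 CPM of ZWILCH (others 20.7 to 21.2). Replicate 1 of that group had 10.2 CPM of CENPL (others 7.18 to 7.62), 2.48 CPM of SPC25 (others 3.32 to 3.34) and 84.3 CPM of UBE2C (others 89.3 to 90.2). Among knockout libraries under vehicle, replicate 1 had 11.5 CPM of NCAPH (others 9.58 to 9.61) and 89 CPM of ECT2 (others 83.6 to 84.2). Replicate 2 of that group had 22.3 CPM of CENPK (others 23.5 to 23.7) and 33.3 CPM of DSN1 (others 35.4 to 35.7), and replicate 4 had 23 CPM of NCAPG (others 26 to 26.4).

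The drug effect differed between knockout and control cells past the threshold for 21 genes, by the interaction term of limma. In log2 units the interaction was -1.001 for MKI67, -0.76 for CDCA3, -0.74 for SPC25, -0.70 for CENPI, -0.59 for CENPE, -0.57 for NCAPG, -0.56 for CENPM, -0.55 for CENPA, -0.54 for NDC80, -0.54 for BIRC5 and -0.52 for TOP2A. It was -0.44 for UBE2C, -0.41 for NUF2, -0.39 for ESPL1, -0.36 for ZWINT, -0.34 for ANLN, -0.32 for SMC4, -0.28 for CDCA8, -0.28 for CENPW, -0.27 for SMC2 and 0.26 for NSL1.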

How the results depend on the processing

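Leaving out each library in turn kept the genes called lower at 44 to 47 for knockout against control under abemaciclib, 27 to 33 under vehicle, 52 for the drug in knockout cells, 50 to 52 in control cells and 17 to 21 for the interaction, and no gene was called higher in the group comparisons under any setting. The 1 gene called higher in the interaction, NSL1, gave a range of 0 to 1, with 0 also for no filter. Over all tested genes, median-of-ratios and quantile rescaling moved the calls for the drug in knockout cells to 2886 and 2715 lower and 3173 and 3578 higher, against 4444 lower and 1780 higher. No filter gave 578 lower and 494 higher interactions over all genes, against 999 and 759, and no trend gave 491 higher. Without a filter or without trend 14 of the 52 passed lower in the interaction, against 20. Quantile rescaling also gave 2274 lower and 2294 higher for the knockout under abemaciclib, 2830 and 2875 under vehicle, and 3849 and 4380 for the drug in control cells. The cause was not tested.

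Sign changes met only uncalled values near 0. For the knockout under vehicle, median-of-ratios and quantile rescaling gave -0.0304 and -0.0419 for NDC80, -0.0451 and -0.0544 for MIS12, and -0.0541 and -0.0306 for BUB3. For the interaction they gave 0.0053 and 0.0451 for CENPO and 0.0096 and 0.011 for INCENP. Leaving out a library gave knockout differences under vehicle of -0.0539 to 0.0766 for CENPI, -0.0031 to 0.0597 for NDC80, -0.0523 to 0.0514 for MIS12, -0.0361 to 0.0132 for ZWINT and -0.0156 to 0.0579 for BUB3. It gave interactions of -0.1088 to 0.0026 for CENPK, -0.0928 to 0.0929 for CENPO, -0.0523 to 0.0414 for INCENP and -0.0749 to 0.007 for ECT2.

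Replicate numbers did not pair the libraries: over all genes, deviations from group means of same-numbered libraries correlated at -0.0367 to 0.0603, other pairs at -0.0581 to 0.067, and 5 of 16 libraries correlated best with their own number. With the replicate block the genes called lower were 46 for the knockout under abemaciclib, 31 under vehicle, 52 and 51 for the drug in knockout and control cells, and 21 for the interaction. Scaling by spike-ins was not run, with 36 to 65 spike-in reads per library. A fit of only the 8 libraries compared cannot be had for the interaction.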
